A study of Mus musculus with 37 samples.

Results

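The splicing factor families described here are the 51 protein-coding mouse genes whose symbols begin with Srsf, Hnrnp, Sf3a, Sf3b or Snrp, leaving out the imprinted gene Snrpn. They were picked by symbol out of the 21975 genes listed in both expression tables. The rule used no expression values, but the families were chosen with earlier results of these data known. The study had named RNA splicing among its top gene ontology terms for contralateral injured against sham cortex. The Hnrnp family gave 20 genes, Srsf 11, Snrp 11, Sf3b 6 and Sf3a 3, spread over 18 chromosomes. Their mRNA was measured by RNA-Seq in astrocytes purified from the mouse cortex with ACSA-2 MicroBeads, 4 months after a severe controlled cortical impact (CCI) over the right parietal cortex or after sham surgery. EEG recording had divided the injured mice into those that developed post-traumatic epilepsy (PTE+) and those that did not (PTE-). The tables hold 19 ipsilateral libraries (4 PTE+, 10 PTE- and 5 sham) and 18 contralateral libraries (4 PTE+, 9 PTE- and 5 sham) from 20 mice, of which 17 gave both hemispheres. All mice were wild type males, named CD1 in the methods of the study and CD31 in the sample labels, and no age was given beyond the time after surgery. The sham mice were not intact controls, since they too received a craniectomy and an implanted electrode. The ipsilateral and contralateral library of a mouse come from the same animal, which was kept in every comparison between hemispheres.

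Splicing removes introns from pre-mRNA on the spliceosome, a machine built on small nuclear RNAs. The Snrp genes encode the proteins of these small nuclear ribonucleoproteins (snRNPs), among them the Sm proteins that form a ring around the RNA, and the Sf3a and Sf3b genes encode the complex with which the U2 snRNP holds the branch point. The Srsf genes encode SR proteins, which bind exonic enhancers and favour the use of nearby splice sites, and the Hnrnp genes encode abundant nuclear RNA-binding proteins that package pre-mRNA and often act against exon inclusion. Many SR and hnRNP genes limit their own protein by switching to transcripts that nonsense-mediated decay destroys.

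Expression was given as TPM, a length-scaled share of all transcripts, which add up to one fixed total per library and carry no record of sequencing depth, so the depth behind each value is unknown. In bulk RNA of this kind, fewer cells of a type and less RNA per cell cannot be told apart. The 12 astrocyte markers summed to between 15865 and 22846 TPM per library, against 542 to 4499 TPM for 12 oligodendrocyte, 120 to 957 TPM for 12 microglial, 76.3 to 784 TPM for 10 neuronal and 296 to 2274 TPM for 10 endothelial markers, and no marker of these lists was at 0 throughout a group. The ipsilateral library of PTE- mouse 9_14 stood apart from the rest. It held 10727 genes above 0 TPM, against 15599 to 18319 in the other ipsilateral libraries, and its median correlation with them over genes was 0.74, against at least 0.90 for each of the others. In it 10 members lay below and 11 above every other ipsilateral library, so the ipsilateral fold changes of named members are also given without it, while the group means include it.

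Nearly all members were well expressed in cortical astrocytes. Their mean over the 37 libraries had a median of 79.6 TPM, against 3.63 TPM for all genes of the tables, and 49 of the 51 exceeded 5 TPM. The most abundant were Hnrnpk, which binds C-rich RNA, at 591 TPM and Hnrnpa2b1, which also directs RNA transport, at 504 TPM. Among SR proteins Srsf5 came first at 369 TPM and Srsf2 next at 232 TPM. The Sm protein gene Snrpb averaged 258 TPM and Snrpe, another Sm protein gene, 117 TPM. The branch point complex was less abundant, led by Sf3b6, whose product lies at the branch point adenosine, at 107 TPM and Sf3b2 at 82.2 TPM, while Sf3a3 reached 44.5 TPM and Sf3a1 21.2 TPM. Only Srsf12 (1.54 TPM) and Hnrnpul2 (2.50 TPM) stayed under 5 TPM, and they were below the limit for testing. The members together took 3702 to 6828 TPM of each library.

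**Figure D1:**
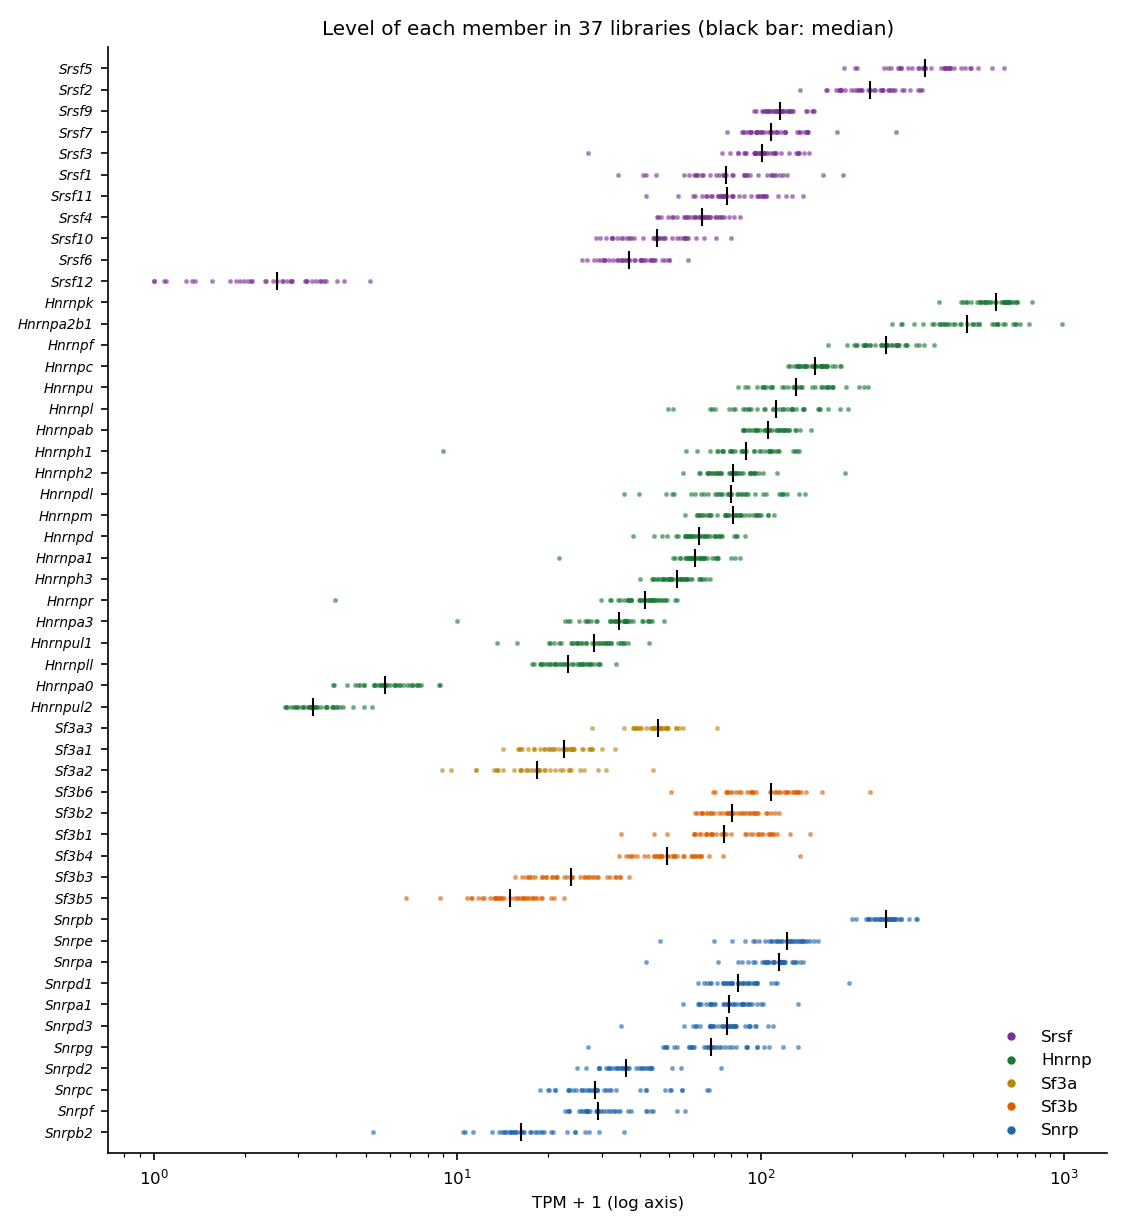
TPM + 1 of each of the 51 members on a log axis, with 1 coloured point per library (37 libraries) and a black bar at the median, grouped by family. Levels run from Srsf12, with a mean of 1.54 TPM, to Hnrnpk, with a mean of 591 TPM, and the isolated low points of Hnrnpr and Hnrnph1 belong to the ipsilateral library of PTE- mouse 9_14.

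The members differed in how steady they were. Over the 18 ipsilateral libraries without mouse 9_14, the median SD of log2(TPM + 1) was 0.26 over 48 members and 0.32 over 10216 genes above 5 TPM. Over the 18 contralateral libraries it was 0.28 over 49 members and 0.32 over 10263 genes. Snrpb (SD 0.13 ipsilateral, 199 to 290.2 TPM) and Hnrnpc, a core packaging protein (SD 0.14 contralateral, 131 to 181 TPM), varied least. Srsf1, the founding SR protein, was among the most variable, with 32.9 to 159.9 TPM ipsilaterally (SD 0.50) and 40.0 to 186 TPM contralaterally (SD 0.54). Snrpb2, a U2 snRNP protein, ran from 4.28 to 34.4 TPM in ipsilateral libraries (SD 0.55), and Snrpc, a U1 snRNP protein that contacts the 5' splice site, from 17.7 to 66.8 TPM in contralateral ones (SD 0.53). Hnrnph1 and Hnrnph2 are close paralogs, so their values are uncertain where reads match both genes.

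Annotation separated the families further. In GENCODE vM21, 24 of the 51 members (47.1%) had at least 1 transcript marked as a target of nonsense-mediated decay, against 29.9% of 10218 protein-coding genes above 5 TPM. Such transcripts were annotated for 9 of 11 Srsf genes (81.8%), 10 of 20 Hnrnp genes, 4 of 11 Snrp genes, 1 of 6 Sf3b genes and none of the 3 Sf3a genes. Since the tables give 1 value per gene, the share of decay-prone transcripts in these astrocytes was not measured.

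Promoters are shown for Srsf1, Srsf5, Hnrnpa2b1 and Hnrnpu, the members with a call between injured and sham mice described further on. Each line gives the 250 bases before the transcription start in RefSeq on build GRCm38.p6, written 5' to 3' on the strand of the gene, with capitals for motif matches on either strand. The letters searched for SP1 were GGGCGG. Those for ETS factors were CCGGAAG. Those for NF-Y were CCAAT, those for the cyclic AMP element (CRE) were TGACGTCA and those for the TATA box were TATAAA, and the NRF1 palindrome was searched as well. Matches that touch or overlap run together in capitals. The windows lie at chr11:88047123-88047372 (plus strand) for Srsf1, chr12:80945249-80945498 (plus strand) for Srsf5, chr6:51469895-51470144 (minus strand) for Hnrnpa2b1 and chr1:178337816-178338065 (minus strand) for Hnrnpu.
Srsf1: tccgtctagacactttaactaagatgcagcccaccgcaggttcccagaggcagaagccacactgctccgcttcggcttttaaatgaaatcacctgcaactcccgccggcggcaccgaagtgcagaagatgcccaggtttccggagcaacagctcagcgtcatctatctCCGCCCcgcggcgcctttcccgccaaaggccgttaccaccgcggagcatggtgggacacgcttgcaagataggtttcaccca
Srsf5: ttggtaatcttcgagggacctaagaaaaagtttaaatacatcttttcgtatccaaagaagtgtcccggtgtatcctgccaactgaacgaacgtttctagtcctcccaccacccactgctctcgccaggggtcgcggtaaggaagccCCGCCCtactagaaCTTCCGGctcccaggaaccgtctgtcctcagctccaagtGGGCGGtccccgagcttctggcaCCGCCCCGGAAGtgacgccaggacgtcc
Hnrnpa2b1: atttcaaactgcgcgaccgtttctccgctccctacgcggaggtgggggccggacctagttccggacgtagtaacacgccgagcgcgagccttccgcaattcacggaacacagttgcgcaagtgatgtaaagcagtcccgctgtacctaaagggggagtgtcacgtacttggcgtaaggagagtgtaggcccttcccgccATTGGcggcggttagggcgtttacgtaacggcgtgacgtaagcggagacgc
Hnrnpu: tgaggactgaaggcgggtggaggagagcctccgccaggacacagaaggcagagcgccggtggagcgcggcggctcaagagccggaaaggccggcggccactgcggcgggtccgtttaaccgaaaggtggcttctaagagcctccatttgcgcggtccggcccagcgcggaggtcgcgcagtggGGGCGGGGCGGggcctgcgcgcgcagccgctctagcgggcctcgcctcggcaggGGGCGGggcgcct
The Srsf1 window has a single SP1 match, Srsf5 has SP1 and ETS matches, Hnrnpa2b1 has a single NF-Y match and Hnrnpu has SP1 matches alone. RefSeq promoters matched 45 of the 51 members. The ETS letters stood in 15 of these 45 (33.3%), against 14.7% of 8124 promoters of genes above 5 TPM and 7.05% of all 27025 promoters. SP1 letters stood in 71.1% of member promoters against 60.4% of those of expressed genes, and NF-Y letters in 44.4% against 37.0%. CRE letters were found in 4.4% against 2.9%, TATA letters in 11.1% against 5.9%, and the NRF1 letters in none of the 45 member promoters against 1.7%. The median GC content was 60.8% for members and 52.0% for all promoters. It was not taken for the promoters of genes above 5 TPM, so members were not compared with expressed genes in GC. These shares describe letters in a window and not binding.

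The mean log2(TPM + 1) over all 51 members varied little between groups. In the ipsilateral cortex it was 5.84 ± 0.15 (SD, n = 5) in sham, 5.90 ± 0.15 (n = 10) in PTE- and 5.92 ± 0.14 (n = 4) in PTE+ mice. In the contralateral cortex it was 6.03 ± 0.17 (n = 5), 5.92 ± 0.15 (n = 9) and 5.88 ± 0.14 (n = 4), respectively. The difference of CCI from sham was therefore 0.068 ipsilaterally and -0.12 contralaterally, both smaller than the SD within groups (0.14 and 0.15). Single sham libraries moved both values, the ipsilateral one to 0.017 without mouse 9_10 and 0.12 without 9_11, and the contralateral one to -0.061 without 9_11. The contralateral value was -0.019 when every library was centred on its own median. Among contralateral libraries sham mouse 9_11 had the highest member mean (6.26) as well as the highest median over all genes above 1 TPM (4.45), and 14 of its members lay above every other contralateral library. By family, the contralateral sham mean exceeded both injured groups for Srsf (6.33 ± 0.23 in sham, 6.08 ± 0.22 in PTE- and 6.09 ± 0.15 in PTE+ mice) and for Hnrnp (6.17 ± 0.20, 6.04 ± 0.18 and 6.02 ± 0.22), with overlapping libraries. The Snrp means were 6.02 ± 0.24 in sham, 6.08 ± 0.10 in PTE- and 5.93 ± 0.16 in PTE+ mice.

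**Figure D2:**
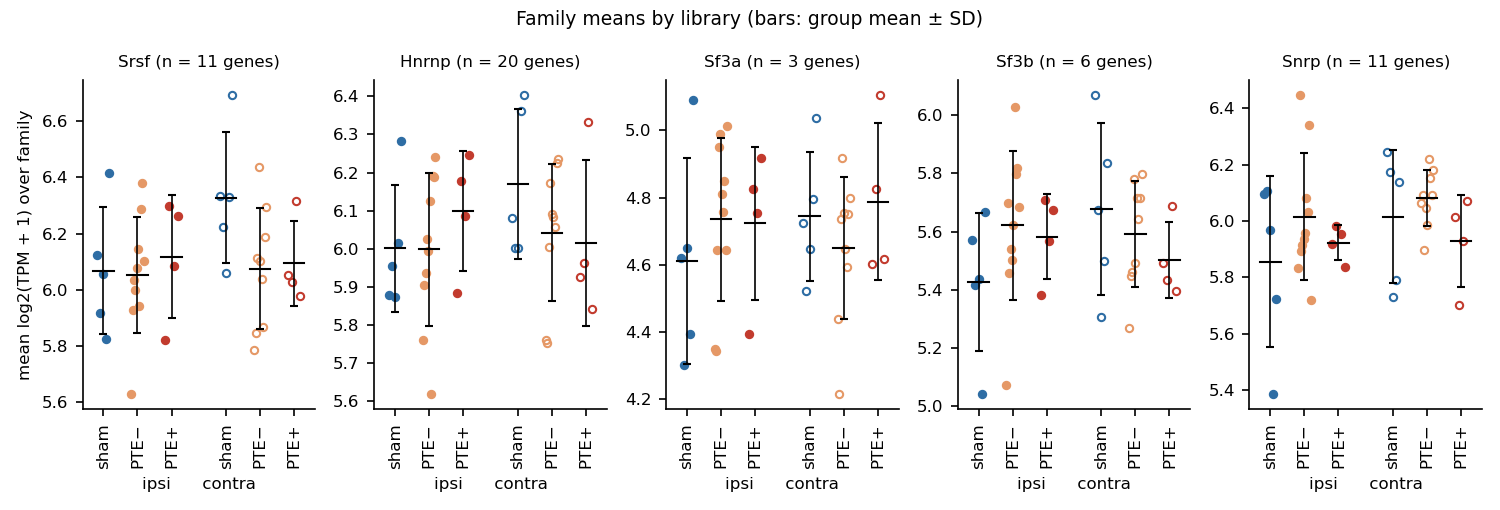
Mean log2(TPM + 1) of each family in every library, by hemisphere (filled points ipsilateral, open points contralateral) and group, with the group mean and SD as black bars. The 5 contralateral sham libraries average 6.33 for Srsf, above 6.08 in PTE- and 6.09 in PTE+ mice, and their points overlap with both.

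Which members differed between injured and sham mice in the contralateral cortex was tested with limma on log2(TPM + 1), and a gene was called when it met the study's thresholds, namely p below 0.05 before adjustment together with a 1.2-fold change or more. Over all genes 428 of 10556 (4.05%) were called, of which 371 (3.51%) were lower and 57 (0.54%) higher in CCI mice. Of the 49 members tested, 35 lay below 0, beside 7024 of all 10556 genes, and 4 were called, all lower in CCI mice. Both SR proteins and hnRNPs were among them, and no snRNP or branch point protein. None reached an adjusted p under 0.05 by the Benjamini-Hochberg method over all genes, nor did any other gene of this comparison, and the adjusted p of all 4 was 0.978. The median log2 fold change was -0.089 over members and -0.071 over all genes tested. After median centring the median of all genes became 0.029 and that of the members 0.011, and after quantile normalization 0.007 and -0.038. The split of calls over all genes moved with it, from 57 higher and 371 lower to 255 and 155 after centring and to 200 and 155 after quantile normalization. Srsf1, Srsf5 and Hnrnpu kept their calls under both scalings, while Hnrnpa2b1 lost its call after centring (-0.35, p = 0.0712 by limma).

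Srsf1 (chr11:88047373-88053755), whose product selects 5' splice sites and binds exonic enhancers, had the largest difference. The contralateral sham libraries held 74.6, 104, 109, 111 and 186 TPM. The PTE- libraries ranged from 40.0 through a median of 74.0 to 121 TPM, and the 4 PTE+ libraries held 63.0, 79.6, 88.6 and 118 TPM. The groups overlapped, but 6 of 13 CCI libraries lay below every sham library and none above. The log2 fold change was -0.58 (SE 0.23, limma p = 0.0225, exact permutation p = 0.0394). Within mice whose names begin with 8 it was -0.75 (6 CCI, 2 sham) and within those that begin with 9 it was -0.42 (7 CCI, 3 sham); what this prefix stands for was not given.

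Srsf5 (chr12:80945504-80950507), the most abundant SR protein gene here, gave the smallest p of the members. Sham libraries held 331, 472, 488, 521 and 634 TPM. PTE- libraries ranged from 204 through 392 to 492.85 TPM, and PTE+ libraries held 261, 342, 347 and 420.2 TPM. Of the 13 CCI libraries, 12 lay below the sham median and 5 below every sham library. The log2 fold change was -0.51 (SE 0.19, limma p = 0.0146, exact permutation p = 0.0256), or -0.67 and -0.38 within the mice named with 8 and with 9.

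Among the hnRNPs, Hnrnpa2b1 (chr6:51460932-51469894) held 395, 511, 638, 688 and 981 TPM in sham libraries. PTE- libraries ranged from 288 through 477 to 717 TPM, and PTE+ libraries held 320, 388, 455 and 501 TPM. Its log2 fold change was -0.45 (SE 0.21, limma p = 0.0444), and the exact permutation test gave p = 0.0684. The spread within groups was thus nearly as wide as the difference, with sham libraries both in the middle and at the top of the range.

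Hnrnpu (chr1:178321108-178337797), a nuclear scaffold protein, held 129, 135, 162, 211 and 225 TPM in sham libraries. PTE- libraries ranged from 87.9 through 127 to 171 TPM, and PTE+ libraries held 107, 108, 128 and 191 TPM. Although 8 of 13 CCI libraries lay below every sham library, the exact permutation test gave p = 0.0581 beside a limma p of 0.0408 (log2 fold change -0.37, SE 0.17).

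**Figure D3:**
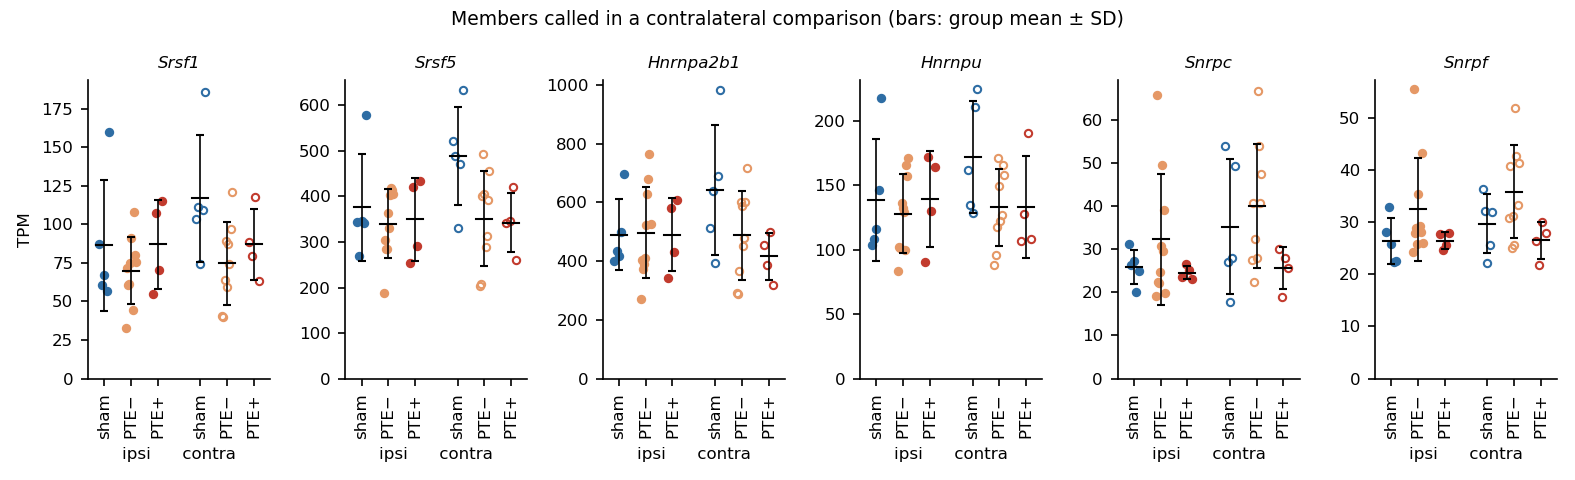
TPM of the 6 members called in a contralateral comparison, by hemisphere (filled points ipsilateral, open points contralateral) and group, with 1 point per library and the group mean and SD as black bars. In the contralateral cortex Srsf1 and Srsf5 average 117 and 489 TPM in sham mice and the highest single value of each belongs to sham mouse 9_11, and Snrpc averages 25.6 TPM in PTE+ and 40.0 TPM in PTE- mice.

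All 4 calls depended on 1 sham library. Without sham mouse 9_11 no member was called, and the log2 fold changes became -0.40 for Srsf1 (p = 0.114), -0.40 for Srsf5 (p = 0.061), -0.29 for Hnrnpa2b1 (p = 0.201) and -0.27 for Hnrnpu (p = 0.154) in limma. Calls over all genes moved as well, to 231 of 10455 without mouse 9_11. Without sham mouse 9_9, whose member mean was the lowest of the sham libraries (5.79), 12 members were called, beside 883 of 10592 genes. Leaving out PTE+ mouse 9_17 gave 7 members, beside 667 of 10550 genes. Leaving out PTE+ mouse 8_10 or 9_18 gave 2, Srsf1 and Srsf5 in both cases, beside 346 of 10567 and 331 of 10562 genes.

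By family, the contralateral median log2 fold change was -0.23 for Srsf, with 9 of 10 members below 0, and it was -0.24 after quantile normalization and -0.13 after centring. For Hnrnp it was -0.096, with 16 of 19 below 0, and it turned to 0.004 after centring. For Sf3b it was -0.090 (0.010 after centring), and for Sf3a -0.047 (0.053 after centring and 0.015 after quantile normalization). The Snrp median lay above 0 as measured (0.042), after quantile normalization (0.083) and after centring (0.14), but at -0.055 without sham mouse 9_9. The Sm protein genes Snrpd3 (0.17, SE 0.11, limma p = 0.125), Snrpf (0.13, SE 0.17, p = 0.463) and Snrpe (0.12, SE 0.10, p = 0.254) had the highest values of all members, none of them called.

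Within injured mice, PTE+ and PTE- contralateral cortices were compared to ask which members go with seizure development. Over all genes 291 of 10423 (2.79%) were called, 203 (1.95%) higher and 88 (0.844%) lower in PTE+ mice, a split that became 148 and 213 after centring and 136 and 242 after quantile normalization. Of 49 members 2 were called, both lower in PTE+ mice and both snRNP proteins. The members' median was -0.069 beside 0.048 for all genes, and 31 of 49 lay below 0, beside 4002 of all 10423 genes. The adjusted p of the members was 0.999.

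Snrpc (chr17:27838150-27851968), the U1 protein, held 18.9, 25.7, 27.9 and 30.0 TPM in PTE+ mice. PTE- libraries ranged from 22.4 through a median of 40.8 to 66.8 TPM. All PTE+ libraries lay below the PTE- median and 1 below every PTE- library. The log2 fold change was -0.57 (SE 0.24, limma p = 0.0336, exact permutation p = 0.0643). Sham libraries spanned 17.7 to 54.0 TPM and covered nearly the whole range of both injured groups.

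Snrpf (chr10:93583029-93589706), a Sm ring protein, held 21.7, 26.4, 27.8 and 29.9 TPM in PTE+ libraries, and PTE- libraries ranged from 25.1 through 33.3 to 51.9 TPM. The log2 difference came to -0.40 (SE 0.18, limma p = 0.0431, exact permutation p = 0.0615). Sham libraries held 22.1 to 36.3 TPM, again inside the range of the injured mice. Snrpb2 had the next lowest value (-0.33, SE 0.17, limma p = 0.0651) and was not called. The highest were Hnrnpl, which binds CA repeats (0.36, SE 0.30, p = 0.251), Sf3a2 (0.35, SE 0.24, p = 0.155) and Srsf1 (0.27, SE 0.26, p = 0.319), all uncalled in limma.

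Without PTE+ mouse 8_17 neither snRNP gene was called (Snrpc -0.43, limma p = 0.125, and Snrpf -0.31, p = 0.145), and without mouse 9_18 the only call was the Sm gene Snrpd2, a member described here only because of this value. Over all genes 435 of 10519 were called without 8_17 and 489 of 10488 without 9_18. Endothelial markers moved with the same comparison. All 9 of those tested lay above 0 in PTE+ mice, with a median log2 fold change of 0.72 and 2 calls, Pecam1 (0.78) and Tek (0.80), and their summed level was 704 to 2274 TPM in PTE+ against 468 to 1297 TPM in PTE- mice. All 9 neuronal markers tested also lay above 0 (median 0.64, 1 call), at 166 to 704 TPM against 76.3 to 685 TPM. Their part in the snRNP values was not tested.

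In the ipsilateral cortex no member was called between CCI and sham mice, where 169 of 10434 genes (1.62%) passed, or 399 genes and still no member without mouse 9_14. No member reached an unadjusted p under 0.05 in limma either. The members' median was 0.12, beside -0.013 for all genes, and it was 0.087 without mouse 9_14. Of the 48 members 33 lay above 0, beside 4917 of all 10434 genes. All genes split into 129 higher and 40 lower calls, or 115 and 62 after centring and 141 and 82 after quantile normalization. The highest members were Sf3b4, a U2 protein that binds beside the branch point (0.34, SE 0.20, limma p = 0.101), Sf3a2 (0.31, SE 0.26, p = 0.247) and Snrpb2 (0.30, SE 0.29, p = 0.313), which became 0.24, 0.22 and 0.25 without mouse 9_14. Snrpb2 stood at -0.041 without sham mouse 9_10. The lowest were Hnrnph1, which binds runs of G (-0.27, SE 0.40), Srsf3, a small SR protein that also helps mRNA export (-0.22, SE 0.23), and Hnrnpr (-0.18, SE 0.40). All 3 of these low values leaned on mouse 9_14, where Hnrnph1 stood at 7.99, Srsf3 at 26.0 and Hnrnpr at 2.96 TPM. Without it they were -0.033, -0.084 and 0.068. In the same comparison all 10 oligodendrocyte markers tested lay below 0 (median -0.93, 4 called), with a summed level of 774 to 2372 TPM in injured and 542 to 4499 TPM in sham libraries, and their part in the member values was not tested.

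Between ipsilateral PTE+ and PTE- cortices no member was called, where 60 of 10473 genes (0.573%) passed, or 197 genes and still no member without mouse 9_14. The 60 split into 34 higher and 26 lower calls (0.248%), or 14 and 36 after centring and 33 and 48 after quantile normalization. The members' median was 0.035, beside 0.12 for all genes, and 0.039 beside 0.080 without mouse 9_14. The extremes were again set in part by mouse 9_14. Hnrnph1 (0.49, SE 0.51) and Hnrnpr (0.46, SE 0.51) were highest, and became 0.16 and 0.12 without it, followed by Srsf1 (0.32, SE 0.27, and 0.25 without it). Snrpb2 (-0.38, SE 0.28), Sf3a2 (-0.30, SE 0.29) and Snrpc (-0.27, SE 0.29) were lowest, and became -0.33, -0.18 and -0.19 without mouse 9_14. For Snrpc the 4 PTE+ libraries lay close together at 23.2 to 26.5 TPM, and PTE- libraries ranged from 19.1 through 27.1 to 65.7 TPM. In the same comparison all 9 neuronal markers tested lay above 0 (median 0.73), with sums of 308 to 455 TPM in PTE+ and 78.2 to 784 TPM in PTE- libraries. So did 7 of 8 oligodendrocyte markers (median 0.64) and all 8 endothelial markers (median 0.24), while 10 of 11 microglial markers lay below 0 (median -0.20). None of these markers was called, and their part in the member values was not tested.

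The hemispheres of the same mouse could be compared in 5 sham and 12 CCI mice. Both kinds of mice entered 1 fit, so limma p-values and calls of either rest on a variance taken over all 17. In sham mice 965 of 10601 genes (9.1%) were called, 910 (8.58%) lower and 55 higher in the ipsilateral cortex. Of 49 members 10 were called, all lower in the ipsilateral cortex, and 46 of 49 lay below 0, beside 7379 of all 10601 genes. The members' median was -0.18 and that of all genes -0.091. Both were higher after centring, at -0.057 and 0.029, which left 4 calls (Srsf10, Sf3b1, Snrpb2 and Srsf1), and the split over all genes changed to 416 higher and 267 lower, or 282 and 300 after quantile normalization, with 8 members called. The same libraries without the pairing gave 3 calls (Srsf10, Snrpb2 and Hnrnpa3). With only 5 pairs an exact permutation test cannot go below p = 0.0625. Leaving out 1 sham mouse gave 5 members and 625 genes without 8_15, and 17 members and 1248 genes without 9_9. It gave 6 members without 8_16 (974 genes) or 9_10 (527 genes). No member passed an adjusted p under 0.05 in limma (smallest 0.295).

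Srsf10, an SR protein that represses splicing when dephosphorylated, had the smallest p. Its ipsilateral minus contralateral difference on the log2 scale was -0.87, -0.67, -0.66, -0.64 and -0.19 in the 5 sham mice, lower on the ipsilateral side in every one. The mean was -0.61 (SE 0.14, limma p = 0.00039), and it stayed called under each alternative tried. In TPM the sham libraries held 31.4, 32.5, 34.1, 35.2 and 50.2 ipsilaterally against 36.0, 55.0, 56.2, 60.2 and 78.7 contralaterally.

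The other SR proteins called were Srsf1, lower in 5 of 5 mice (-0.93 to -0.15, mean -0.48, limma p = 0.0153), and Srsf5, lower in 4 of 5 (-0.86 to 0.065, mean -0.40, p = 0.0183). Of the hnRNPs, Hnrnpu (-0.33, p = 0.00376), Hnrnpk (-0.27, p = 0.00575) and Hnrnpa3, a close relative of Hnrnpa2b1 (-0.37, p = 0.0182), were lower in all 5 mice, and Hnrnpa2b1 (-0.36, p = 0.0324) in 4 of 5. Sf3b1, the largest protein of the branch point complex, was lower in 4 of 5 mice (-0.81 to 0.061, mean -0.47, limma p = 0.00446). Among snRNP genes Snrpb2 (-1.55 to 0.19, mean -0.65, p = 0.00843) and the Sm gene Snrpg (-1.30 to 0.52, mean -0.39, p = 0.0423) were the most uneven, and sham mouse 9_10 gave the lowest value of both. The SD of the Snrpg difference was 0.688 in sham and 0.318 in injured mice, and that of Snrpb2 0.639 and 0.505. Since the variance was taken over all mice, these limma p-values do not measure the spread among the sham mice alone. This comparison shares its contralateral sham libraries with the contralateral comparison of CCI and sham, in which Srsf1, Srsf5, Hnrnpa2b1 and Hnrnpu were called.

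Injured mice gave fewer calls among the members. Of 10350 genes 475 (4.59%) were called, 217 (2.1%) lower and 258 (2.49%) higher in the ipsilateral cortex, and Snrpc was the single member called (-0.35, SE 0.14, limma p = 0.0248, adjusted p = 0.456, exact permutation p = 0.0459), lower in 10 of 12 mice and equal in 1. In the same libraries without the pairing of hemispheres it was not called (-0.35, limma p = 0.068), nor with the unpaired libraries added (-0.24, p = 0.207). In this comparison all 9 endothelial markers tested lay below 0 (median -0.37, 5 called), with sums of 296 to 1469 TPM over ipsilateral and 468 to 2274 TPM over contralateral injured libraries. Of 9 oligodendrocyte markers 8 lay below 0 (median -0.55, 4 called), with sums of 774 to 2372 TPM against 874 to 3800.2 TPM. Their part in the Snrpc value was not tested. The members' median was -0.028, with 28 of 49 below 0, beside -0.006 and 5385 of 10350 for all genes. In the 12 injured mice the Srsf10 difference ran from -0.63 to 0.50 with a mean of -0.031, below 0 in 6 and above in 6.

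The difference between these hemisphere contrasts, which is also the difference between the ipsilateral and contralateral effect of CCI, was tested directly. Here 695 of 10695 genes (6.5%) were called, 631 (5.9%) with a higher and 64 (0.598%) with a lower ipsilateral effect, which became 224 and 382 after centring and 262 and 230 after quantile normalization. Of 49 members 4 were called, all higher, and 44 lay above 0, with a median of 0.17 beside 0.082 for all genes. After centring the medians were 0.052 and -0.037. Srsf10 had a difference of 0.57 (SE 0.17, limma p = 0.00291, exact permutation p = 0.0063, adjusted p = 0.569). Sf3b3, a scaffold of the branch point complex, had 0.41 (SE 0.17, p = 0.0283, exact permutation p = 0.0317), Sf3b1 0.38 (SE 0.17, p = 0.043, exact permutation p = 0.0603) and Hnrnpu 0.31 (SE 0.12, p = 0.0204, exact permutation p = 0.0234). Only Srsf10 was called after centring, and likewise in the same libraries without the pairing (0.57, limma p = 0.0336). In the same test 9 of 10 oligodendrocyte markers lay below 0 (median -0.52, none called), all 11 microglial markers above 0 (median 0.23, none called) and 75 of 84 ribosomal protein genes below 0 (median -0.12, none called). In sham mice the oligodendrocyte sum was 542 to 4499 TPM ipsilaterally and 1063 to 3423 TPM contralaterally, and the microglial sum 127 to 957 TPM and 156 to 755 TPM. In injured mice the microglial sum was 120 to 520.4 TPM ipsilaterally and 187 to 452 TPM contralaterally. Their part in the member values was not tested. The calls depended on single sham mice, with 12 members (and 778 genes) without mouse 9_9, 2 (and 403 genes) without 9_10 and Srsf10 alone (and 496 genes) without 8_15.

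**Figure D4:**
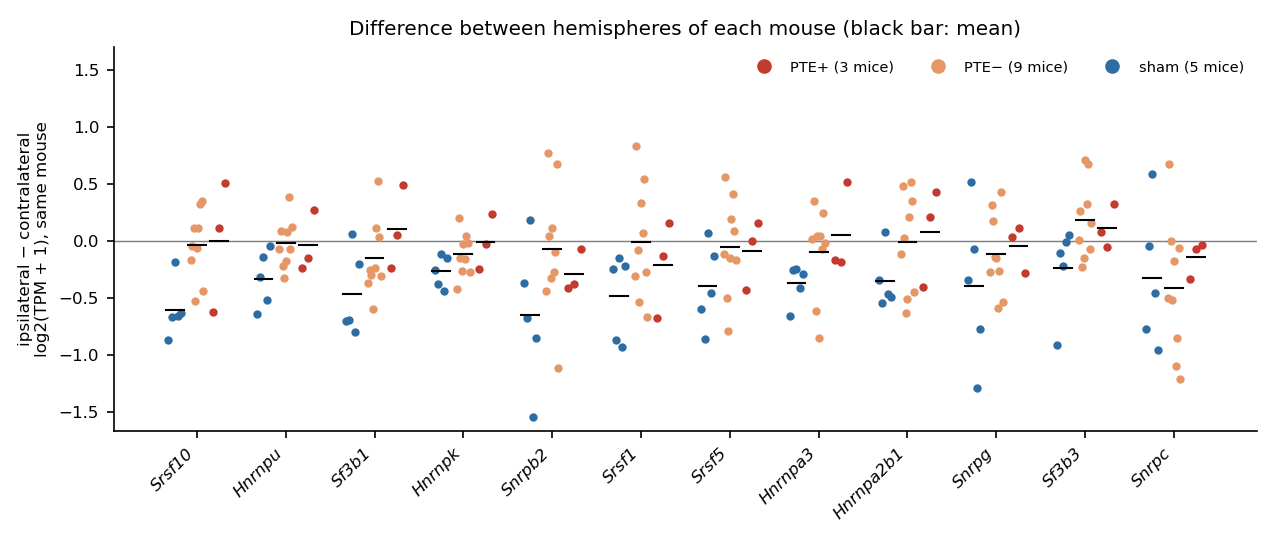
Ipsilateral minus contralateral log2(TPM + 1) of each mouse with both hemispheres, for the 12 members called in a hemisphere comparison, with 1 point per mouse and a black bar at the group mean. All 5 sham mice lie below 0 for Srsf10, from -0.87 to -0.19, while the 12 injured mice run from -0.63 to 0.50.

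Other genes of the splicing pathway were read from lists that share no gene with the members. In the contralateral comparison of CCI and sham, 3.51% of all genes were called lower in CCI mice. There 3 of 43 other core spliceosome proteins were called, all lower in CCI mice, namely Prpf39 (-0.58), Prpf38b (-0.45) and Prpf3 (-0.33), the last a U4/U6 protein. Of 44 other splicing regulators 5 were called, all lower, among them Pnn (-0.59) and Srrm1 (-0.51), which sit on spliced exons, Luc7l3 (-0.56), a U1-associated protein, and Tardbp (-0.30), which encodes TDP-43. Their median was -0.21, with 41 of 44 below 0. Of 9 SR protein kinases and importers Prpf4b was called (-0.50), and of 12 genes of nonsense-mediated decay and the exon junction none. In the same comparison 65 of 84 cytosolic ribosomal protein genes lay above 0 (median 0.078, none called). Neuronal markers lay below 0 for 8 of 9 (median -0.24, none called), with sums of 76.3 to 704 TPM in injured and 167 to 723 TPM in sham libraries, and their part in the member values was not tested.

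In sham mice the hemisphere comparison called 8 of 43 core spliceosome proteins, 12 of 44 regulators, 1 of 9 kinases (Clk1, -0.31) and 2 of 12 decay genes (Rbm8a, -0.39, and Upf3b, -0.30), all lower in the ipsilateral cortex, where 8.58% of all genes were called lower. In the contralateral comparison of PTE+ and PTE- mice the same lists gave 1 higher call of 43 core proteins (Lsm4, 0.33) and 2 of 42 regulators (Raly, 0.76, and Rbfox2, 0.78), where 1.95% of all genes were called higher. In the ipsilateral cortex 1 core protein was called higher in CCI than in sham mice (Phf5a, 0.46), beside 1.24% of all genes. None was called between ipsilateral PTE+ and PTE- mice, beside 0.573% of all genes in either direction. In the sham hemisphere comparison Elavl1 (-0.39), Luc7l3 (-0.48), Rbm39 (-0.46) and Tardbp (-0.41) had the smallest p of the regulators. All 9 endothelial markers tested also lay below 0 (median -0.40, 2 called), with sums of 337 to 1537 TPM ipsilaterally and 410.2 to 1750 TPM contralaterally, and 2 of 7 mural markers were called lower, with sums of 233 to 461 TPM and 208 to 592 TPM. Their part in the member values was not tested.

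Families varied together across libraries to different degrees. Over the 18 ipsilateral libraries without mouse 9_14 the mean log2(TPM + 1) of Srsf and of Hnrnp correlated at r = 0.82 (Spearman rho 0.75), and over the 18 contralateral libraries at r = 0.83 (rho 0.81). Without the 2 libraries farthest from the median, r was 0.71 and 0.81. Within the mice named with 8 and with 9 it was 0.65 and 0.70 ipsilaterally and 0.97 and 0.85 contralaterally. The Snrp mean gave r = 0.19 and 0.09 with Srsf and -0.16 and -0.01 with Hnrnp. Within the mice named with 8 and with 9, Srsf and Snrp correlated at 0.30 and 0.59 ipsilaterally, above the value over all mice, and at 0.26 and -0.03 contralaterally. Against the summed TPM of cytosolic ribosomal protein genes, the Srsf mean ran in the opposite direction (r = -0.77 ipsilaterally and -0.57 contralaterally), as did the Hnrnp mean (-0.86 and -0.61), while the Snrp mean gave 0.37 and 0.18. These are descriptions over libraries that share a fixed TPM total, so that a larger share of some transcripts means a smaller share of the rest, and both hemispheres come largely from the same mice.

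**Figure D5:**
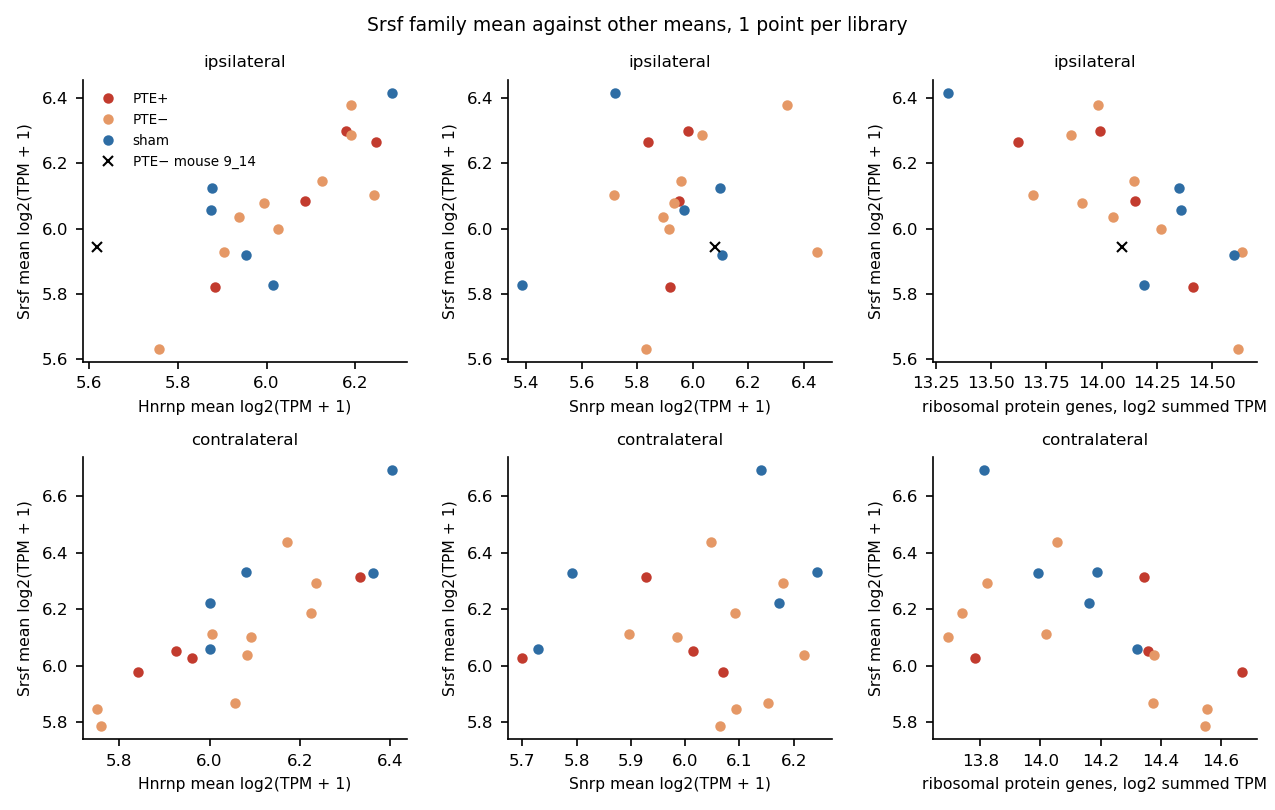
Srsf family mean log2(TPM + 1) of each library against the Hnrnp mean, the Snrp mean and the log2 summed TPM of ribosomal protein genes, with ipsilateral libraries above and contralateral libraries below, coloured by group, and a cross for PTE- mouse 9_14. The Srsf mean is high where Hnrnp is high (r = 0.82 and 0.83), gives r = 0.19 and 0.09 with Snrp and is low where ribosomal protein transcripts are high (-0.77 and -0.57), where all values of r leave out mouse 9_14.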

How the data were processed

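RNA of ACSA-2-purified cortical astrocytes was made into libraries with a Takara SMART-Seq kit for ultralow input, and the data hold 37 libraries from 20 mice. The authors trimmed reads with Trim Galore 0.6.4 and estimated transcripts with Bowtie2 2.4.1 and RSEM 1.2.28 on mm10, and deposited TPM per gene in a table for each hemisphere. The annotation release is not given in the sources used here. DESeq2 1.36.0 is also listed in the submitters' processing notes, and counts were not used here. TPM hold no depth, so no counting interval is given.

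Ensembl identifiers were matched to GENCODE vM21 (21933 of 21975). A gene was tested if the mean of 1 or more of the groups exceeded 5 TPM, on log2(TPM + 1) with limma 3.58.1 (trend) in R 4.3.3, so fold changes of low genes are understated. Adjusted p-values follow Benjamini-Hochberg over all genes of a comparison, and all tests were two-sided. Permutation tests of single members were exact over libraries or mice. Comparisons of hemispheres had the mouse as a block, since the labels name the mouse of each library. Sham and injured mice entered the same fit and shared its variance. Deviations from the group means correlated above 0.1 between the hemispheres of 16 of 17 mice (median 0.42). Libraries of a group come from separate mice. The fits were tested on simulated data.

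Members called, the 3 highest and 3 lowest in each comparison of groups, the 2 most abundant of each family and up to 4 called genes of each other list were named. The members, the lists of splicing genes, ribosomal proteins and cell type markers, and the tests were chosen with earlier results of these data known. Other scalings, filters, pseudocounts, designs and left-out libraries were tried as alternatives. Tables of the protein products were not used here.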

Additional observations from a re-analysis of the deposited data

Results flagged for a closer look

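The values of 27 named members and the family means were tested in each group of 4 to 10 libraries, 192 times in all. In 12 the highest or lowest value lay far from the rest by Dixon's test, where chance gives about 1 in 20 for values not picked beforehand. Many members were named for extreme fold changes in these same libraries. That rate therefore does not apply to them, and the count of 12 cannot be weighed against it. All 12 were values of a member and none a family mean, but far fewer family means than members were tested, so this says little about the families. In the ipsilateral PTE- group, mouse 9_14 set 4 of them, with Hnrnpr at 2.96 TPM (others 30.99 to 48.27), Srsf3 at 25.97 TPM (83.55 to 132.18), Sf3a2 at 43.22 TPM (12.26 to 28.1) and Sf3b4 at 133.92 TPM (35.87 to 61.89). In the ipsilateral sham group, mouse 9_11 set 3, with Srsf5 at 578.65 TPM (268.3 to 346.42), Srsf10 at 50.18 TPM (31.44 to 35.21) and Sf3b1 at 124.49 TPM (59.38 to 68.36), and mouse 9_10 held Snrpb2 at 4.28 TPM (14.01 to 17.98). PTE+ mouse 9_17 held Sf3b3 at 33.29 TPM contralaterally (18.1 to 20.34) and Snrpd3 at 90.77 TPM ipsilaterally (73.83 to 76.66). Contralateral PTE+ mouse 8_17 held Srsf3 at 83.14 TPM (99.2 to 101.69), and contralateral PTE- mouse 9_12 held Sf3a3 at 70.65 TPM (34.56 to 51.82).

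In limma's interaction test 4 of 49 members had an unadjusted p under 0.05, beside 748 of all 10695 genes. The effect of CCI differed between the hemispheres by 0.5749 for Srsf10, 0.4099 for Sf3b3, 0.3776 for Sf3b1 and 0.3067 for Hnrnpu on the log2 scale. Each was higher ipsilaterally, and none passed the adjusted threshold. After median centring only Srsf10 was still called.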

How the results depend on the processing

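No member had an adjusted p under 0.05 in any comparison, so that threshold gives 0 members in the contralateral, hemisphere and interaction comparisons. For CCI against sham contralaterally, 2 members were called with PTE- mice alone (Srsf1, Srsf5), beside 397 of 10564 genes. With PTE+ mice alone there were 2 (Srsf5, Hnrnpa2b1), beside 210 of 10640 genes, and 0 to 12 with a library left out. For PTE+ against PTE- contralaterally, quantile normalization gave 4 (beside 378 of 10423 genes) and median centring 4 (beside 361). The fit of all 3 groups gave 1 (Snrpf, beside 224 genes), and 0 to 2 were called with a library left out (beside 201 to 489 genes). Ipsilaterally, CCI against sham gave 5 higher members with array weights (Hnrnpf, Hnrnpm, Srsf10, Hnrnpll and Hnrnph2). It gave 1 with PTE+ mice alone (Hnrnpf), beside 163 of 10447 genes. With no replicate block and the unpaired libraries added, a change of both pairing and libraries, the count was 0 in CCI mice, 3 in sham mice (Srsf10, Snrpb2, Hnrnpk) and 1 for the interaction (Srsf10). With no block in the same libraries, an alternative chosen after seeing the data, it was 0, 3 (Srsf10, Snrpb2, Hnrnpa3) and 1 (Srsf10). Median centring gave 4 in sham mice, beside 683 of 10601 genes, and 1 for the interaction, beside 606 of 10695 genes. With a library left out, counts ran from 5 (without sham mouse 8_15) to 17 (without 9_9) in sham mice and from 1 to 12 for the interaction. Over all genes, calls ipsilaterally were 399 (CCI) and 197 (PTE+) without mouse 9_14 and 843 and 441 with array weights, contralaterally 883 without sham mouse 9_9, 231 without 9_11 and 828 (PTE+) with array weights, in sham mice 1248 without 9_9 and 625 without 8_15, for the interaction 778 without 9_9, 496 without 8_15 and 403 without 9_10, and without the pairing in the same libraries 224 in CCI mice, 314 in sham mice and 206 for the interaction (273, 141 and 147 with the unpaired ones). Signs turned for Hnrnph1 (0.13 with array weights, 0.076 with PTE+ mice alone) and Hnrnpr (0.16, 0.15, and 0.068 without mouse 9_14) in the ipsilateral CCI comparison, where Snrpb2 ran from -0.041 without sham mouse 9_10 to 0.42 without 8_15, for Snrpf contralaterally (-0.15 with PTE+ mice alone), and for Hnrnpl between contralateral PTE+ and PTE- (-0.016 with array weights). Beside these 8 reversals, 481 log2 fold changes of named members kept their direction and side of the threshold, 86 fell under it and 3 passed it. Only members called in the main fit could fall under the threshold. The 481 include members that were uncalled and stayed so, and this tally therefore does not measure how stable the calls were. The mean over all members moved by less than 1 SD in all 56 alternatives. Every difference of that mean was itself below 1 SD, so this limit cannot show that its size or sign held. Between ipsilateral PTE+ and PTE- mice it turned from 0.028 to -0.05 after centring and to -0.025 after quantile normalization. The cause of these shifts was not tested, and the TPM hold no depth from which a counting limit could be set.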
